A study of Mus musculus with 2 samples.

Results

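The regions described here are the wide peaks with modest enrichment in a chromatin immunoprecipitation sequencing (ChIP-seq) map of SREBP-2 in mouse liver. They are the deposited SREBP-2 peaks at least 488 bp wide whose ratio of SREBP-2 to IgG reads was at most 5, and they number 403 of the 1800 peaks in the list used here (22.4%). To form the ratio, 1 read was kept per chromosome, 5′ end and strand, each 5′ end was moved 100 bp downstream, 1 read was added to the count in the peak, and each count was divided by its library's distinct reads. The peaks were chosen by these measured values, the width and the ratio, so both are given as a description. The wide peaks are the upper 25% of the list by width (450 of 1800), and 86.0% of all peaks (1548) had a ratio of at most 5, so "modest" is the ordinary state of a peak in this list. Among the wide peaks 403 of 450 (89.6%) were modest, and among the narrower ones 1145 of 1350 (84.8%).

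Both libraries came from liver of the mouse strain C57BL/6, and they differ in the antibody. The SREBP-2 library was precipitated with an antibody to the amino-terminal part of SREBP-2 that enters the nucleus, and the control with non-specific immunoglobulin (IgG). Each antibody has 1 library, so the variation between animals is unknown. No source used here gives the age, diet, drug treatment or number of the animals.

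SREBP-2 is made as a precursor in the membrane of the endoplasmic reticulum. When sterols are low, the protein SCAP escorts it to the Golgi, where proteases release its amino-terminal domain, a transcription factor that binds sterol regulatory elements near genes of cholesterol synthesis and uptake. In ChIP-seq, fragments bound by such a factor pile up around the bound site, and the IgG control shows which chromatin is recovered without the specific antibody.

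The SREBP-2 library held 2396147 distinct reads and the IgG library 7011345. The 403 wide modest peaks covered 258.6 kb, or 35.6% of all peak sequence, and held 14522 SREBP-2 reads and 14086 IgG reads. They thus took up 0.606% of the SREBP-2 library and 0.201% of the IgG library. The SREBP-2 antibody recovered these regions about 3 times as often as IgG did, with a ratio of the shares of 3.02 (exact 95% interval 2.95 to 3.09). This interval and those below are Clopper-Pearson intervals of counts, which cover counting error only. The reads carry no molecular identifiers, so distinct reads need not be separate molecules.

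Single wide modest peaks rested on 19 to 96 SREBP-2 reads (median 33) and 14 to 103 IgG reads (median 33). Their widths ran from 488 to 1387 bp with a median of 596 bp, and 8 exceeded 1 kb. Their ratios ran from 1.33 to 4.95 with a median of 3.01, and 25% of the peaks were below 2.56. Only 9 were below 2 and 55 were above 4. Against the 37-base IgG reads alone, 1 of the 2 read lengths in the control file, the median ratio was 5.58, and only 163 wide peaks would have had a ratio of at most 5. That control is sparse here, with a median of 3 reads per peak and none in 22 peaks.

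**Figure D1:**
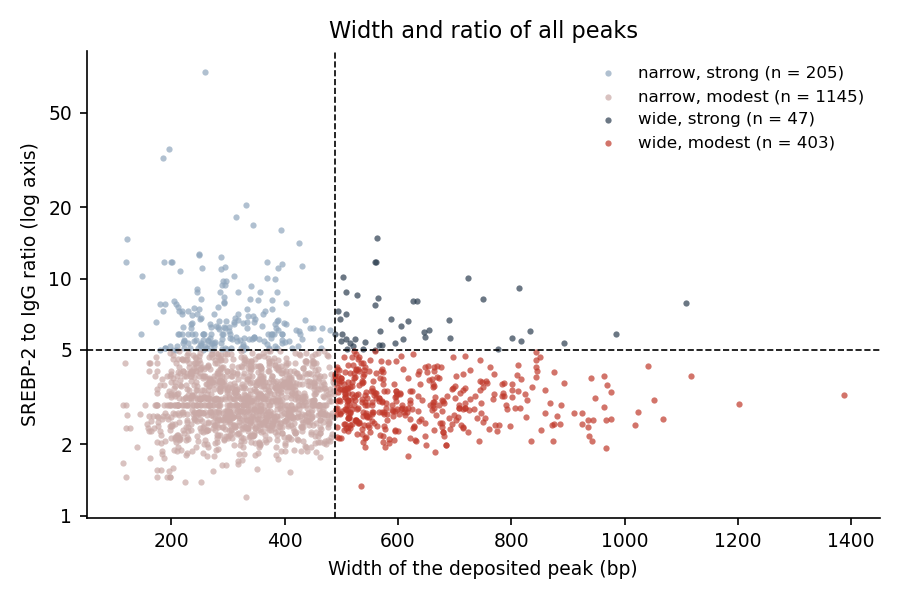
Width of each deposited peak (x axis, bp) against its SREBP-2 to IgG ratio (y axis, log scale), with dashed lines at 488 bp and at a ratio of 5. Each point is 1 peak, and the 403 wide modest peaks fill the lower right field, most of them between 488 and 714 bp and between ratios of 2 and 4.

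A lower bound of the ratio above 1 was found at 402 of the 403 wide modest peaks, against 92.4% of all peaks (percentage over the 1800 peaks). As the ratio took part in choosing the peaks, this count describes their depth and is no evidence of binding. The 1145 narrow modest peaks reached it at 1009 (88.1%) with a median of 18 SREBP-2 reads. A lower bound above 2 was reached by 138 wide modest peaks (34.2%, against 29.2% of all peaks). The lower bound exceeded 1 against the 36-base IgG reads at 394 of the 403 (82.8% of all peaks), against the 37-base reads at 399 (86.4%) and against both at 390 (75.9%). The 36-base IgG reads in turn exceeded the 37-base reads by this measure at 149 of the 403 (19.8% of all peaks), so a bound above 1 also arose between IgG reads.

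The IgG control was itself high at the wide modest peaks, which the rule's limit on the ratio favours. IgG reads were 54.5 per kb inside them and 6.98 per kb at 1500 to 2000 bp from their midpoints, 7.81 times as dense inside (7.50 to 8.13). SREBP-2 reads were 56.2 per kb inside and 2.29 per kb in the same flanks, 24.5 times as dense (22.9 to 26.2). In the flanks the SREBP-2 and IgG shares did not differ beyond counting error, at a ratio of 0.960 (0.891 to 1.03). The IgG excess was 8.71-fold (8.33 to 9.11) in the 36-base reads and 3.98-fold (3.59 to 4.41) in the 37-base reads, so it was present in both read lengths and smaller in the second.

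The wide strong peaks, 47 peaks at least 488 bp wide with a ratio above 5, had a similar IgG density of 49.9 reads per kb. Their IgG excess over the flanks was 7.07-fold (6.27 to 7.99), an interval that overlaps that of the wide modest peaks. The sets differed in SREBP-2 density, 124.6 reads per kb in the wide strong and 56.2 in the wide modest peaks, which the rule's limit on the ratio favours. The narrow modest peaks stood close to the wide modest ones in both libraries, with 56.6 SREBP-2 and 55.9 IgG reads per kb and an IgG excess of 7.81-fold (7.61 to 8.01). The 205 narrow strong peaks, narrower than 488 bp with a ratio above 5, stood apart. They had 31.8 IgG reads per kb and an IgG excess of 4.74-fold (4.43 to 5.09). A ratio above 5 favours few IgG reads in the peak.

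In the middle 500 bp every wide modest peak held more IgG reads than 99% of the 500 bp windows outside peaks that held any read, where the 99th percentile was 11 IgG reads. The same held for 96.4% of all peaks. The rule's limit on the ratio favours many IgG reads in the peak, so the outcome at the wide modest peaks was partly built in. It was also found at 44 of the 47 wide strong peaks, whose ratio above 5 favours few IgG reads. The median of the wide modest peaks was 27 IgG and 28 SREBP-2 reads in these 500 bp. Outside the peaks and more than 1 kb from them, 2599 windows held at least 27 IgG reads, or 0.0787% of the windows with a read. Of these windows 65 also held at least 28 SREBP-2 reads. Their SREBP-2 to IgG ratio was 1.01 (0.993 to 1.02) over the IgG reads that chose them. Over IgG reads that did not choose them it was higher: in 3171 windows with at least 24 of the 36-base reads, the ratio to the 37-base reads was 2.74 (2.68 to 2.81), against 0.977 (0.975 to 0.979) in all windows with a read. Whether SREBP-2 exceeded the control in IgG-dense windows outside the peaks thus depended on the control. These windows leave out every deposited peak, so their ratios are not set against those of the wide modest peaks.

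The IgG profile was broader relative to its own height than the SREBP-2 profile, which rose much higher. In the mean profile around the midpoints of the wide modest peaks, the IgG profile was 900 bp wide at 50% of its height above the flanks and the SREBP-2 profile 550 bp. In the narrow modest peaks these widths were 650 bp and 275 bp, and in the wide strong peaks 850 bp and 425 bp. The 205 narrow strong peaks had the broadest IgG profile, 1000 bp, beside a SREBP-2 profile of 250 bp. The IgG width at the wide modest peaks was 900 bp in the 36-base reads and 675 bp in the 37-base reads. At the narrow strong peaks these widths were 1000 bp and 325 bp, and at the narrow modest peaks 725 bp and 400 bp. At the wide strong peaks they were 775 bp and 25 bp, the latter a single step of the profile. Whether a broad IgG profile was tied to wide peaks thus depended on the IgG reads used.

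**Figure D2:**
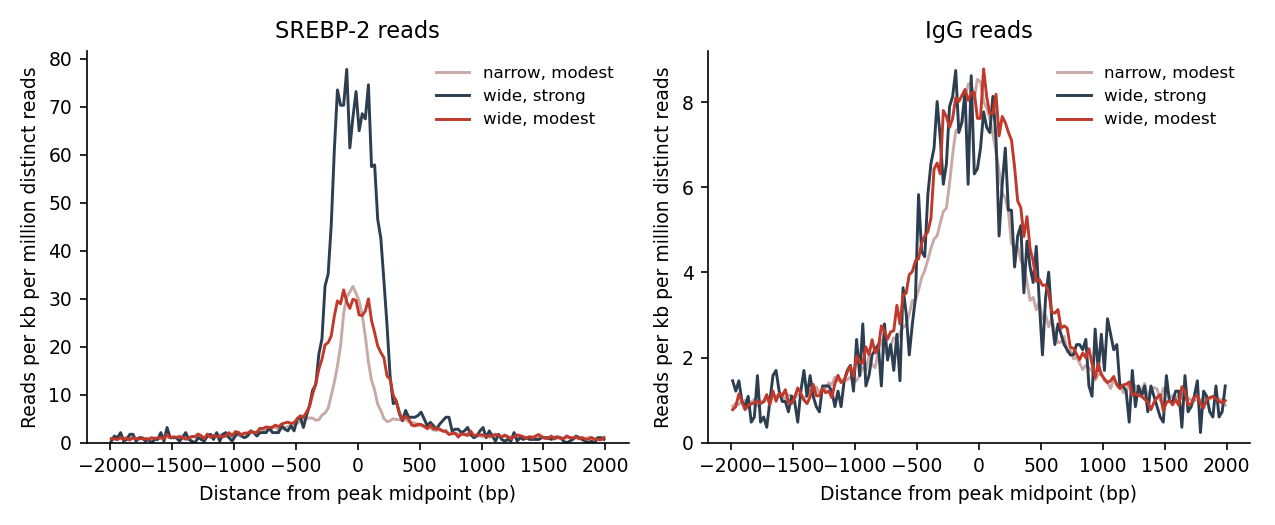
Mean density of SREBP-2 reads (left) and IgG reads (right), in reads per kb scaled to the size of the library, within 2000 bp of the peak midpoint for 3 classes of peaks. In the wide modest peaks the SREBP-2 profile is 550 bp wide at 50% of its height and the IgG profile 900 bp, and the IgG curves of the 3 classes have means of 8.04 (wide modest), 7.10 (wide strong) and 8.18 (narrow modest) within 100 bp of the midpoint.

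The reads outside the deposited edges were not counted in the ratio, although the width depends on where the edges were set. Within 250 bp outside the edges of the wide modest peaks, IgG reads were 4.68 times as dense (4.51 to 4.85) as at 1000 to 2000 bp outside, at 31.9 against 6.82 reads per kb. SREBP-2 reads there were 5.21 times as dense (4.90 to 5.54), at 11.9 against 2.28 reads per kb. Both signals thus went on past the edges, by close to the same factor. With reads moved by 46 bp the factors were 4.55 in IgG and 4.32 in SREBP-2, so which library fell faster was not settled. From 250 to 500 bp outside they were 2.81-fold (2.69 to 2.92) and 2.92-fold (2.72 to 3.13) in the same order, and from 500 to 1000 bp 1.59-fold (1.53 to 1.66) and 1.68-fold (1.57 to 1.80).

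SREBP-2 exceeded IgG inside the edges, and outside them the libraries stood close to each other. The ratio of the library shares was 3.54 (3.40 to 3.68) in the middle 200 bp of the wide modest peaks and 2.77 (2.69 to 2.85) in the rest of the peak. Within 250 bp outside the edges it was 1.09 (1.04 to 1.14), and from 250 to 500 bp outside 1.02 (0.954 to 1.08). The value next to the edge turned with the placement of reads: moved by 46 bp, 50% of the strand offset, they gave 0.942 (0.895 to 0.991) there and 3.04 (2.97 to 3.11) inside the peaks. With all reads as deposited it was 0.852. Another peak lay within 2 kb of an edge at 32 of the 403. Without these, the ratio was 1.02 (0.966 to 1.07) within 250 bp of the edge and 0.867 (0.807 to 0.931) from 250 to 500 bp. The edges were presumably set on the SREBP-2 reads, so part of this step is built into the list. In the narrow modest peaks the ratio was 3.37 (3.29 to 3.45) in the middle 200 bp, 2.28 (2.21 to 2.36) in the rest and 1.15 (1.12 to 1.18) within 250 bp outside.

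The number of summits within a peak was not part of the rule, but the width was. A wider peak has more room for summits, so a higher count than in all peaks is partly built in. Summits were called on distinct reads moved 46 bp downstream, since the strands at all peaks were offset by 93 bp (92 bp at the wide modest peaks, and 84 bp in IgG). A density was drawn with a Gaussian kernel of 30 bp SD, and a summit needed at least 5 reads within 50 bp, a prominence of at least 40% of its height and 100 bp to a higher summit. By this call, 283 of the 403 wide modest peaks had at least 2 SREBP-2 summits (70.2%), against 25.7% of all peaks. There were 120 with 1 summit, 209 with 2, 67 with 3 and 7 with at least 4. At least 3 summits were thus found at 74 (18.4%), against 4.5% of all peaks.

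IgG reads gave nearly the same count. By the same call 285 of the 403 wide modest peaks had at least 2 IgG summits (70.7%), against 33.2% of all peaks, and 111 had at least 3 (27.5%, against 7.11% of all peaks). The read numbers behind these counts were close but not the same, with a median of 33 in each library and a 95th percentile of 64.8 SREBP-2 and 55 IgG reads. Several summits were found in both libraries at 201 peaks (49.9%, against 15.3% of all peaks), in SREBP-2 alone at 82 (20.3%, against 10.4%), in IgG alone at 84 (20.8%, against 17.9%) and in neither at 36 (8.93%, against 56.3%). There were more SREBP-2 than IgG summits at 114 peaks (28.3%, against 24.9% of all peaks) and fewer at 140 (34.7%, against 21.4%). Several summits in SREBP-2 reads therefore did not set SREBP-2 apart from the control at these peaks. The count depended on the call: with a kernel of 50 bp SD it was 113 in SREBP-2 and 141 in IgG, and with reads moved by 100 bp it was 177 and 256.

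The share with several summits rose with width. Among the wide modest peaks of 488 to 531 bp, 57 of 100 had at least 2 SREBP-2 summits and 53 at least 2 IgG summits. Among those of 714 to 1387 bp the numbers were 84 (82.4%) and 91 (89.2%) of 102. Per kb of peak, the wide modest peaks held 2.97 SREBP-2 summits, fewer than the narrow modest peaks with 3.40. Neighbouring SREBP-2 summits lay a median of 236 bp apart (117 to 602 bp, 366 pairs), and neighbouring IgG summits 255.5 bp (121 to 778 bp, 410 pairs).

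The gap to the narrow peaks was also found at like numbers of SREBP-2 reads, though not at like widths. Among peaks with 30 to 39 SREBP-2 reads, at least 2 SREBP-2 summits were called at 128 of 167 wide modest peaks (76.6%, median width 622 bp). In the same range of reads they were called at 10 of 58 narrow modest peaks (17.2%, median width 416.5 bp). With 20 to 29 SREBP-2 reads the gap was smaller, 73 of 131 wide modest peaks (55.7%) against 94 of 389 narrow modest peaks (24.2%). In the range of 30 to 39 SREBP-2 reads, at least 2 IgG summits were called at 70.1% and 48.3% in the same order. The median IgG reads there were 34 and 26.5, so IgG summits were not compared at like numbers of IgG reads. The wide strong peaks had at least 2 SREBP-2 summits at 29 of 47 (61.7%), and the same number had at least 2 IgG summits. With 1 library per antibody, no test between classes of peaks was made.

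**Figure D3:**
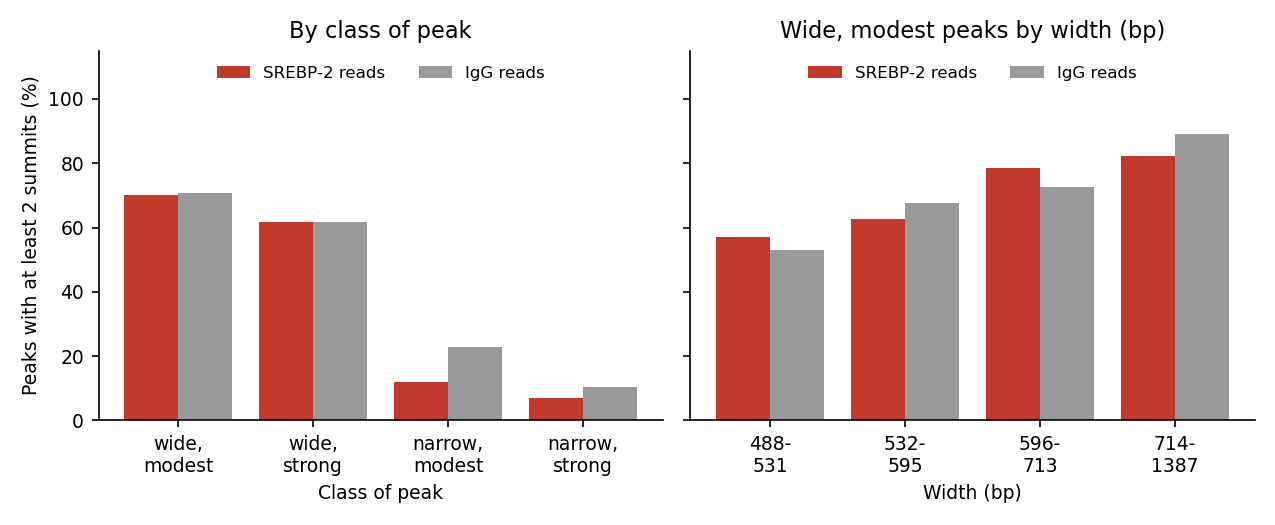
Percentage of peaks with at least 2 summits in SREBP-2 reads and in IgG reads, by class of peak (left) and, for the wide modest peaks, by width (right). SREBP-2 and IgG bars stand at 70.2% and 70.7% in the wide modest peaks, and both libraries rise from the narrowest to the widest group.

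Whether reads dip between summits that they did not choose was checked by strand. Where at least 2 summits were called on the plus-strand SREBP-2 reads alone (277 wide modest peaks), the minus-strand reads were counted in 50 bp at the 2 highest summits and at the lowest point between them. The valley held 0.385 times the mean of the summits (0.337 to 0.439), and it was the lower at 214 of the 277 peaks. With the strands exchanged the value was 0.381 (0.333 to 0.433), lower at 232 of 285. The other strand thus held fewer reads at the valley than at the mean of the SREBP-2 summits in most peaks. That mean can rest on 1 of the 2 summits, so these values do not show that each summit recurred. Both strands can also stem from opposite ends of the same amplified fragment. In IgG the valleys stood at 0.531 (0.468 to 0.600) and 0.440 (0.383 to 0.503) of the mean summit, with the same limits.

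Across the libraries the dip was measured in the same way, against the mean of the 2 summits. At the SREBP-2 summits of 283 wide modest peaks, IgG reads numbered 1839 at the 2 summits together and 671 at the valley, a valley of 0.730 times the mean summit (0.667 to 0.798). IgG was lower at the valley in 187 peaks and higher in 80. At IgG summits, SREBP-2 reads at the valley were 0.874 times those at the mean summit (0.806 to 0.948). Each library thus dipped where the other one had its valley, less than it did across its own strands. The contrast was larger in SREBP-2 (0.874 against 0.385 and 0.381) than in IgG (0.730 against 0.531 and 0.440). The nearest IgG summit lay within 50 bp of the highest SREBP-2 summit in 149 of 401 wide modest peaks (37.2%) and more than 100 bp away in 134 (33.4%). Within 50 bp it lay in 45.8% of the narrow modest and 34.8% of the wide strong peaks that had summits in both libraries. In the narrow modest peaks the IgG valley between SREBP-2 summits was 0.761 (0.669 to 0.863), and in the wide strong peaks 0.933 (0.701 to 1.23), which counting error does not separate from the wide modest value. At IgG summits the narrow modest peaks went the other way, with SREBP-2 reads at the valley 1.24 times those at the mean summit (1.14 to 1.34). In the wide strong peaks the value was 1.01 (0.865 to 1.19), an interval that overlaps that of the wide modest peaks.

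**Figure D4:**
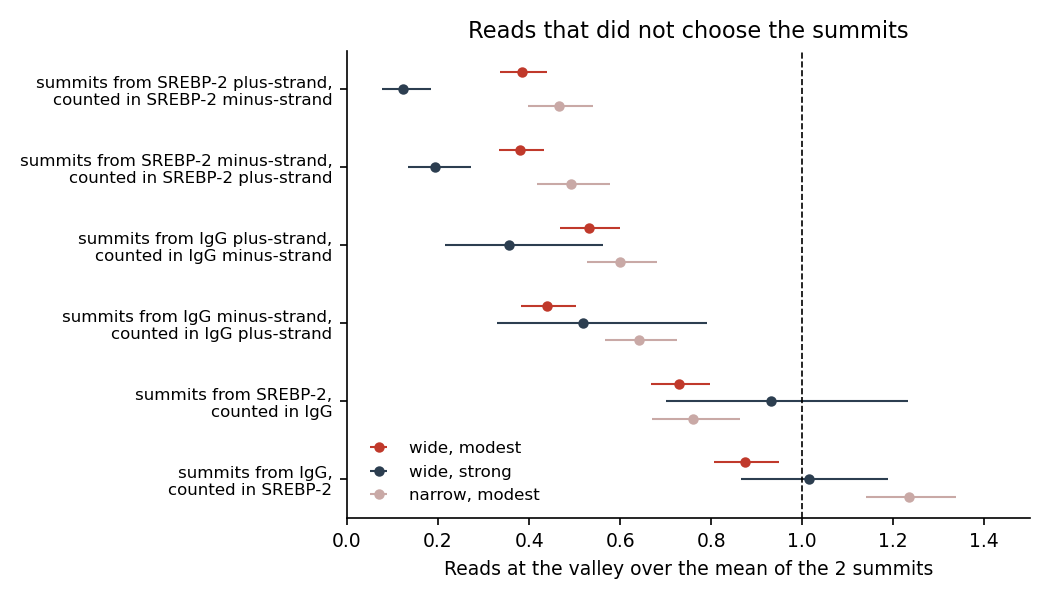
Reads at the valley divided by the mean of the 2 highest summits (x axis), counted in reads that did not choose the summits, with exact 95% intervals of the counts, for 3 classes of peaks. Values left of the dashed line at 1 mean fewer reads at the valley. The wide modest peaks lie at 0.381 to 0.531 across strands and at 0.730 and 0.874 across libraries.

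The widest of these peaks lay on chromosome 4 at 133369078 to 133370464 (1387 bp), with 82 SREBP-2 and 74 IgG reads and a ratio of 3.24 (2.34 to 4.50). It had 4 SREBP-2 and 6 IgG summits, and none of its SREBP-2 summits held more than 6 reads in 50 bp. The peak on chromosome 11 at 84683325 to 84684526 (1202 bp) held 65 and 64 reads, a ratio of 2.97 (2.07 to 4.26). It had 5 SREBP-2 summits, at bases 20, 371, 560, 889 and 1051 from its start, with 5, 9, 8, 6 and 5 SREBP-2 reads in 50 bp against 2, 4, 2, 2 and 0 IgG reads. Its 3 IgG summits lay at bases 53, 275 and 646, the first of them close to the SREBP-2 summit at base 20. The only other peak with 5 SREBP-2 summits was on chromosome 3 at 101407969 to 101408903 (935 bp), with a ratio of 2.36 (1.58 to 3.48) from 49 SREBP-2 and 61 IgG reads, and 4 IgG summits. There the highest IgG summit, at base 631 with 12 IgG reads, lay near the SREBP-2 summit at base 588.

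Width did not always come with several SREBP-2 summits. The peak on chromosome 2 at 167905969 to 167907036 (1068 bp) had a single SREBP-2 summit, at base 327 with 11 reads, and 4 IgG summits, from 53 SREBP-2 and 61 IgG reads (ratio 2.55, 1.73 to 3.73). On chromosome 15 at 96290570 to 96291687 (1118 bp), 56 SREBP-2 and 42 IgG reads gave 2 SREBP-2 and 3 IgG summits (ratio 3.88, 2.57 to 5.97). On chromosome 14 at 119336734 to 119337785 (1052 bp), 65 and 62 reads gave 3 and 3 (ratio 3.07, 2.13 to 4.42). Further peaks with 4 SREBP-2 summits lay on chromosome 12 at 60231848 to 60232795 (ratio 3.14, 2.13 to 4.66) and on chromosome 1 at 55144614 to 55145589 (ratio 2.57, 1.76 to 3.72). In the former, the SREBP-2 and IgG summits at base 152 coincided. In the latter, the SREBP-2 summit at base 224 held 7 SREBP-2 reads and 1 IgG read, while the one at base 674 held 6 and 9, beside an IgG summit at base 662.

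**Figure D5:**
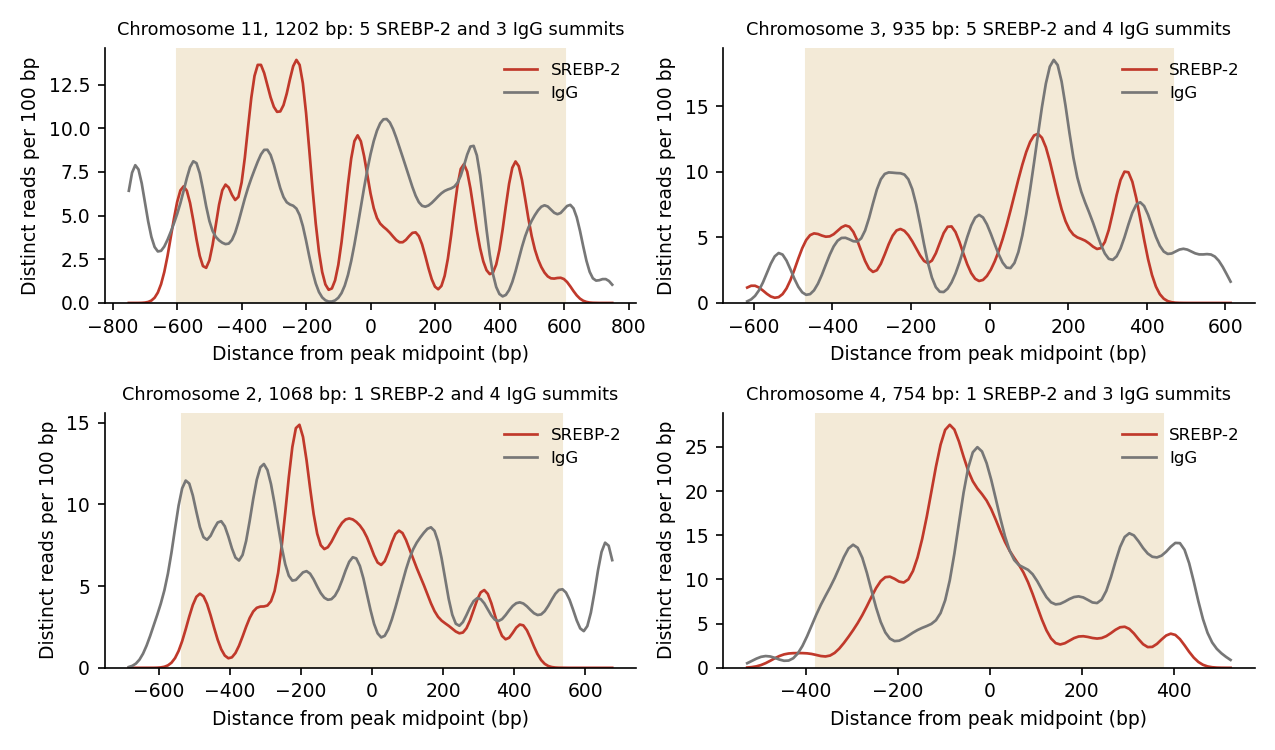
Smoothed density of distinct SREBP-2 reads (red) and IgG reads (grey), in reads per 100 bp, against the distance from the midpoint in 4 wide modest peaks, with the deposited peak shaded. The upper 2 peaks have 5 SREBP-2 summits each and the lower 2 have a single SREBP-2 summit beside 4 and 3 IgG summits.

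The most SREBP-2 reads fell in the peak on chromosome 5 at 125869593 to 125870615 (1023 bp), with 96 SREBP-2 and also the most IgG reads, 103 (ratio 2.73, 2.04 to 3.64). Its SREBP-2 summit at base 423 held 16 SREBP-2 and 13 IgG reads, while the one at base 855 held 16 and 2. IgG had a summit at base 432, close to the SREBP-2 summit at base 423, and one at base 803. The counts are raw, and the IgG library is the deeper. On chromosome 15 at 81977391 to 81978240 (850 bp) there were 90 SREBP-2 and 56 IgG reads (ratio 4.67, 3.33 to 6.69), and on chromosome 14 at 51550145 to 51550987 (843 bp) 86 and 51 (ratio 4.90, 3.45 to 7.12). In the latter, summits at bases 427 and 631 held 15 and 17 SREBP-2 reads against 3 and 1 IgG reads. The peak on chromosome 4 at 147412574 to 147413271 (698 bp) held 84 and 52 reads (ratio 4.69, 3.31 to 6.81), with 20 SREBP-2 against 4 IgG reads at its main summit.

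The 5 lowest ratios, chosen as such, are given as values. On chromosome 11 at 120345863 to 120346397 (535 bp) the ratio was 1.33 (0.769 to 2.14), from 24 SREBP-2 and 54 IgG reads. This was the only wide modest peak whose interval spanned 1. Its IgG density of 100.9 reads per kb was the second highest of the 403. The next were on chromosome 10 at 80655079 to 80655695 (32 and 53 reads, ratio 1.79, 1.10 to 2.79) and chromosome 9 at 20682453 to 20683118 (42 and 67 reads, ratio 1.85, 1.22 to 2.74). On chromosome 17 at 26644912 to 26645879, 51 and 78 reads gave a ratio of 1.93 (1.32 to 2.76) with 4 SREBP-2 summits of 6 or 7 reads each. On chromosome 10 at 110943412 to 110943988, 27 and 41 reads gave 1.95 (1.14 to 3.21).

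The highest IgG density, 110.1 reads per kb, was found on chromosome 4 at 150228922 to 150229675 (754 bp), with 73 SREBP-2 and 83 IgG reads (ratio 2.58, 1.85 to 3.57). Its single SREBP-2 summit, at base 290, held 20 SREBP-2 and 3 IgG reads, and its IgG summits lay at bases 81, 350 and 681. The peak on chromosome 9 at 122260697 to 122261205 (509 bp) was of the same kind, with 98.2 IgG reads per kb and a ratio of 2.81 (1.85 to 4.26). Its SREBP-2 summits at bases 142 and 354 held 14 and 10 SREBP-2 reads against 3 and 6 IgG reads. At these summits, which the SREBP-2 reads chose, SREBP-2 outnumbered IgG although the IgG library is the deeper. The peak with the second highest IgG density, on chromosome 11 at 120345863, went both ways. Its SREBP-2 summit at base 95 held 8 SREBP-2 and 3 IgG reads, and the one at base 340 held 5 and 9.

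At the limits of the rule the values ran on without a break. Just inside the width limit were peaks of 488 bp on chromosome 9 (ratio 3.95) and 489 bp on chromosome 2 (3.79), and just outside were 2 of 487 bp, on chromosome 11 (3.59) and chromosome 2 (2.60). The highest ratios inside were 4.95 on chromosome 10 and 4.94 on chromosome 3, and the lowest outside were 5.02 on chromosome 10 and 5.03 on chromosome 11.

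The wide modest peaks were found on all 19 chromosomes that carry peaks in this list, as 14.7% (chromosome 7) to 30% (chromosome 14) of the peaks of a chromosome. Another peak midpoint lay within 1 kb at 25 of them (6.20%, against 8.28% of all peaks) and within 10 kb at 43 (10.7%, against 12.8%), both near the shares of all peaks. Their distinct SREBP-2 positions stood for 1.90 deposited reads each and their IgG positions for 1.47. Over all peaks the SREBP-2 positions stood for 2.02. The whole SREBP-2 library held 7312431 deposited reads at 2396147 distinct positions, and the IgG library 12762782 at 7011345.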

How the data were processed

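The authors deposited aligned reads of 1 SREBP-2 and 1 IgG library and a list of SREBP-2 peak positions, which gives no score. Per the labels, fragments of 200 ± 5 bp were selected from 20 ng of DNA. The aligner, the peak caller and the build remain not given in the sources used here. Reads passed the last gene of the RefSeq table of GRCm38.p6 by 7.20 Mb on chromosome 7, so the builds differ, and genes, motifs and sequences were not analysed here. Deposited starts, taken as 0-based, are printed 1-based. IgG reads are 36 or 37 bases long.

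Members, lists and measures were chosen with earlier results of these data known. The ratio follows the rule given above. Flanks lay 1500 to 2000 bp from the midpoint, and profiles had 25 bp steps. Summits were searched in the peak and 150 bp to each side, and summits on single strands needed 3 reads. Windows outside peaks were chosen after the data were examined, as was the comparison of summits across libraries. Named regions were the 5 widest, those with most SREBP-2 reads, lowest ratio, most SREBP-2 summits and highest IgG density, and those next to the limits. Summit calls and intervals were tested on simulated data. The simulated peaks all had sites, so how often several summits are called on a flat profile was not tested. Python 3.11.15, numpy 2.4.6, pandas 2.3.3 and scipy 1.17.1 were used.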

Additional observations from a re-analysis of the deposited data

How the results depend on the processing

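Membership was held fixed for all results but the number of wide modest peaks. That number, 403, was 163 against the 37-base IgG reads, 198 with a ratio of at most 3 and 197 with a width of at least 600 bp, and stayed within 402 to 425 under the other 4 alternatives. The 402 peaks above IgG became 138 with a lower bound above 2. The median ratio of 3.01 was 2.31 with all reads as deposited, 2.58 and 5.58 against the 36-base and 37-base IgG reads, and 3.20 within 250 bp of the midpoint. The 283 peaks with several SREBP-2 summits became 177 with the shift of 100 bp and 113 with the kernel of 50 bp SD, and the 285 with several IgG summits became 141 with that kernel. The IgG density over the flanks, 7.81, was 6.39 with all reads, 8.71 in the 36-base and 3.98 in the 37-base reads. The IgG profile width of 900 bp was 825 bp with the shift of 46 bp and 675 bp in the 37-base reads. Outside the edges, the SREBP-2 excess of 5.21 was 3.70 with all reads and 4.32 with the shift of 46 bp, and the IgG excess of 4.68 was 4.20 with all reads and 4.95 without peaks that have a neighbour within 2 kb. The ratio of SREBP-2 to IgG within 250 bp outside the edges, 1.09, turned below 1 with the shift of 46 bp (0.942) and with all reads (0.852), and was 1.02 without peaks that have a neighbour within 2 kb. The IgG valley at SREBP-2 summits, 0.730, was 0.880 with the shift of 100 bp. The alternatives for IgG summits, this ratio, the SREBP-2 profile width and this valley, and the shift of 46 bp outside the edges, were chosen after seeing the data. The cause of these shifts was not tested. No paired analysis was possible because there is a single library for each antibody. Distance to transcription starts was not run, for want of an annotation of the build.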
